A study of Mus musculus with 6 samples.

Results

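Markers of the brain regions that border the striatum were followed mouse by mouse in striatal RNA from mice lacking PGC-1alpha and from wild-type littermates. The set held 10 genes, Tcf7l2, Lef1, Slc17a6, Prkcd, Rora, Synpo2, Zic1, Zic4, Calb1 and Six3, chosen as markers of thalamus, septum and pallidum. The choice was made with earlier results of these data known. Every probe set that the platform annotation assigns to exactly 1 of these genes was taken, 34 of the 45101 on the array. A filter on dim signals, which kept probe sets above the 40th percentile of mean log2 signal, left 28 of the 34 among 27022 tested, and each of the 10 genes kept at least 1.

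The knockout (KO) group was 3 PGC-1a-/- mice and the wild-type (WT) group 3 PGC-1a+/+ mice, all bred from heterozygous PGC-1a+/- founders, all female and aged 6 months. The tissue was striatum, 1 Affymetrix array was hybridised per mouse, and the replicates are separate animals. The label of KO 3 names cytoplasmic RNA where those of the other 5 mice name total RNA, while the series design gives total RNA throughout, and the members' median difference is given without KO 3 too. Values are MAS5 signals on a linear scale. Differences are KO minus WT of log2(signal + 16), so a difference of 1 is a doubling for a bright probe set and more for a dim one.

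The striatum borders the septum and the globus pallidus, and the thalamus lies behind it, so a dissected striatum can carry some of each. Thalamic relay neurons are glutamatergic and use the vesicular glutamate transporter VGLUT2, encoded by Slc17a6, whereas the projection neurons of the striatum are GABAergic. Zic transcription factors mark the septum. Calbindin, encoded by Calb1, and the homeobox factor Six3 are also made by striatal projection neurons themselves, so these 2 members mark the host tissue as well. In bulk tissue, fewer cells of a type and less RNA per cell cannot be told apart.

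All 5 tested probe sets of Ppargc1a, the gene of PGC-1alpha, were lower in every KO mouse (59.3 to 123) than in any WT mouse (156 to 397), with limma adjusted p from 3.02e-05 to 0.00832, so each mouse matched its genotype label. Array medians ran from 43.1 to 47.3, and correlations between arrays over the tested probe sets from 0.975 to 0.983. The 3′ to 5′ log2 ratio of GAPDH, a measure of RNA integrity, ran from -0.495 to -0.426 and that of beta-actin from 1.03 to 1.24, with WT 2 the highest in both. The part of this in the members' values was not tested.

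Over the tested probe sets of all 10 genes, the WT mice were usually spread more widely than the KO mice. The SD of log2 signal was larger in WT than in KO in 20 of the 28 (71.4%), against 54.6% of all tested probe sets. It was smaller in WT in 1 Tcf7l2, 1 Lef1, 1 Synpo2, 2 Rora, 2 Calb1 and the Six3 probe set, for example 0.04 against 0.21 in Rora 1458145_at. WT 2 was the lowest of the 6 mice in 15 of the 28 tested probe sets (53.6%), against 17.7% of all tested probe sets, and WT 1 was the highest in 11 (39.3%, against 17.4%). Probe sets of 1 gene are not independent, and Rora alone gave 7 of those 15. Counted once per gene, WT 2 was the lowest in 6 of 10, against 15.6% of all named genes. WT 1 was the highest in 4 of 10, against 18.1%. The median SD over the 28 was 0.16 in KO and 0.46 in WT on the log2 scale. Over all tested probe sets it was 0.14 in KO and 0.16 in WT. No member probe set passed an adjusted p under 0.05 in limma, a threshold that 0.47% of all probe sets passed, and 7 of 28 had an unadjusted p under 0.05, against 9.17% of all. Of the 28, 21 were higher in KO by their means and 7 were lower. By the brightest probe set of each gene the median difference was 0.41, with 9 of 10 genes higher, where all 12323 named genes had a median of -0.01 and 48.2% higher. Since the members were chosen with earlier results of these data known, these shares are a description. Without WT 2 the members' median was 0.13, without WT 1 it was 0.68, and without KO 3 it was 0.57. The part that the share of thalamic tissue in each sample has in these values was not tested.

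**Figure D1:**
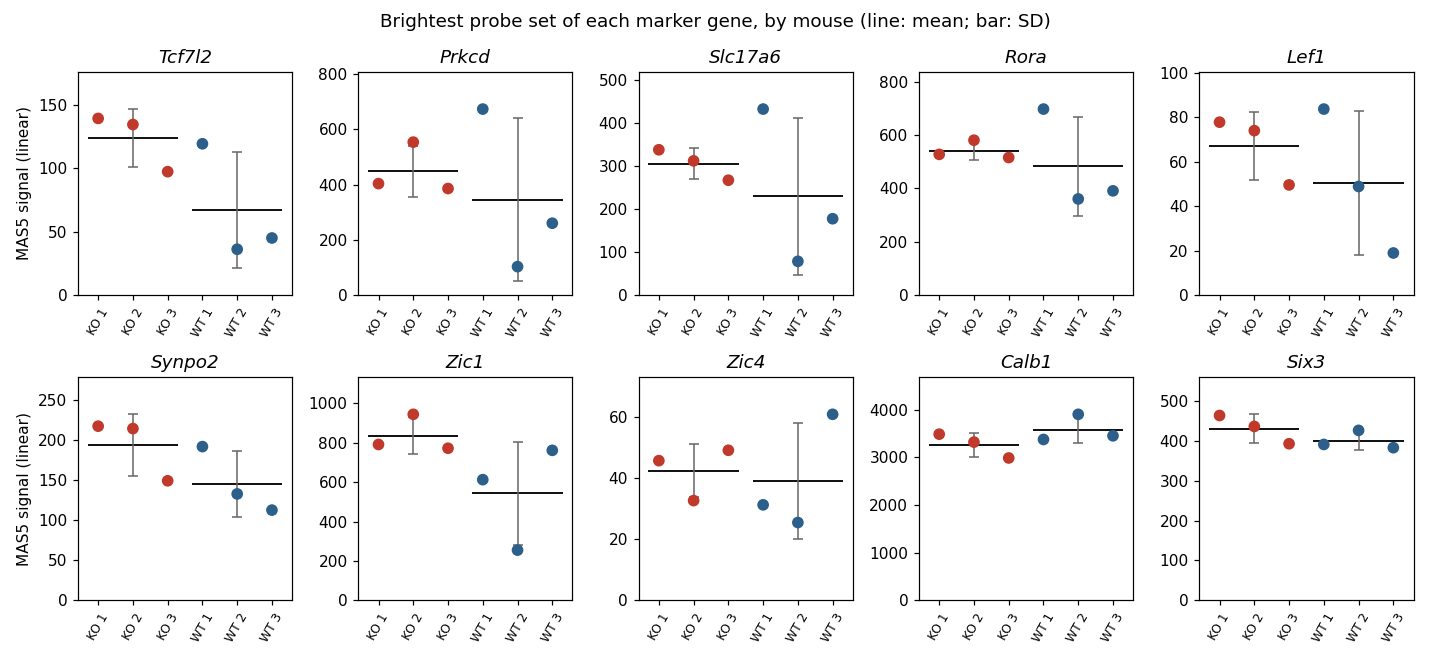
MAS5 signal (linear scale) of the brightest tested probe set of each of the 10 marker genes in each mouse, with KO in red, WT in blue, a line at each group mean and a bar of 1 SD. Tcf7l2, Prkcd, Slc17a6 and Zic1 are lowest in WT 2, while Calb1 and Six3 are nearly level across the 6 mice.

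Tcf7l2 and Lef1 encode HMG-box transcription factors that act with beta-catenin at the end of the Wnt pathway, and Tcf7l2 stays strongly expressed in the adult thalamus. The brightest Tcf7l2 probe set (1429428_at) read 139, 135 and 97.3 in KO mice 1 to 3 and 119, 36.1 and 45.0 in WT mice 1 to 3. WT 1 lay among the KO mice, and the other 2 WT mice were below them all. The means were 124 ± 23 in KO and 66.8 ± 46 in WT (SD, n = 3), a difference of 0.87 (SE 0.29, limma adjusted p = 0.34), the largest among the members' brightest probe sets, with a 95% interval of 0.24 to 1.51. Without WT 1 the difference was 1.30 with an adjusted p of 0.017, the only case among all alternatives in which a gene's brightest probe set passed. A second Tcf7l2 probe set read 61.7, 99.2 and 66.0 in KO and 32.9, 37.1 and 49.7 in WT. Its groups did not overlap (difference 0.70, SE 0.20, adjusted p = 0.24), and here WT 1 was the lowest mouse, not the highest of the WT mice. The other 2 Tcf7l2 probe sets were below the filter.

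Lef1, the relative of Tcf7l2 that is also expressed in the thalamus, had another order of the WT mice. Its brightest probe set (1454734_at) read 77.7, 73.9 and 49.5 in KO and 83.6, 48.8 and 18.9 in WT. WT 1 was again the highest, but WT 3 and not WT 2 was the lowest, and the groups overlapped (difference 0.43, SE 0.31, adjusted p = 0.73). The other Lef1 probe set, also dim, read 57.5, 17.8 and 18.4 in KO and 43.6, 22.3 and 52.9 in WT, with the opposite sign (-0.29). None of the 20 tested genes of a Wnt and TCF list, 23 in all, was called. In that list 12 were higher and 8 lower, with a median of 0.01, and Tle4, a corepressor (-0.26, adjusted p = 0.56), and Pygo2, a coactivator (0.21, adjusted p = 0.62), had the smallest p. Ctnnb1, beta-catenin itself, read 4095 ± 41 in KO and 3906 ± 218 in WT (difference 0.07).

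Slc17a6 gave the widest contrast between WT mice together with Prkcd. Its brighter probe set (1428379_at) read 338, 312 and 267 in KO and 433, 78.4 and 178 in WT. The KO mice fell inside the WT range, which spanned 5.52-fold from WT 2 to WT 1, against 1.27-fold within KO. The difference was 0.67 (SE 0.39, adjusted p = 0.66, 95% interval -0.17 to 1.51). The second Slc17a6 probe set kept the same order of WT mice, at 220, 55.9 and 98.6, beside 127, 147 and 119 in KO (difference 0.23, adjusted p = 0.88). Without WT 2 the brighter one differed by 0.12, and the dimmer one changed sign to -0.17.

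Prkcd encodes protein kinase C delta, a calcium-independent PKC enriched in thalamic relay neurons. Its brighter probe set (1422847_a_at) read 404, 554 and 386 in KO and 674, 103 and 260 in WT, and the KO mice again lay inside the WT range. WT 1 stood 6.55-fold above WT 2 (difference between genotypes 0.70, SE 0.44, adjusted p = 0.69, exact permutation p = 0.5). The dimmer Prkcd probe set showed the same order of WT mice, 66.5, 24.0 and 47.1, around 47.8, 51.3 and 46.1 in KO (difference 0.12).

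Rora encodes the retinoid-related orphan receptor alpha, a nuclear receptor made in the thalamus and in other neurons. All 9 of its probe sets were tested and all 9 were higher in KO by their means, from 0.08 to 0.64, with 0 called. The brightest (1424034_at) read 527, 580 and 515 in KO and 697, 360 and 391 in WT. WT 1 was above and the other WT mice below every KO mouse (difference 0.22, SE 0.19, adjusted p = 0.78). WT 2 was the lowest mouse in 7 of the 9. A pair of dimmer Rora probe sets went another way, with no overlap between the groups. One read 128, 99.6 and 93.9 in KO and 73.1, 67.9 and 69.4 in WT (difference 0.51, SE 0.15, adjusted p = 0.28). The other read 51.1, 79.6 and 42.5 against 37.1, 29.6 and 25.0 (difference 0.64, SE 0.22, adjusted p = 0.36). In both, WT 1 was no higher than the KO mice, so Rora probe sets did not share 1 pattern across the mice. Without WT 1 another 2 Rora probe sets passed (1455165_at, difference 0.75, adjusted p = 0.022, and 1420583_a_at, difference 0.67, adjusted p = 0.043), which with Tcf7l2 made 3 calls.

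Synpo2, an actin-binding protein of the synaptopodin family used as a thalamic marker, had 3 tested probe sets and 1 below the filter. The brightest (1452879_at) read 217, 214 and 149 in KO and 192, 133 and 113 in WT, with WT 3 lowest (difference 0.39, SE 0.18, adjusted p = 0.56). The other tested probe sets differed by -0.05 and -0.03 and followed neither WT 1 nor WT 2 in the same way, since one had its highest value, 46.3, in WT 2.

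**Figure D2:**
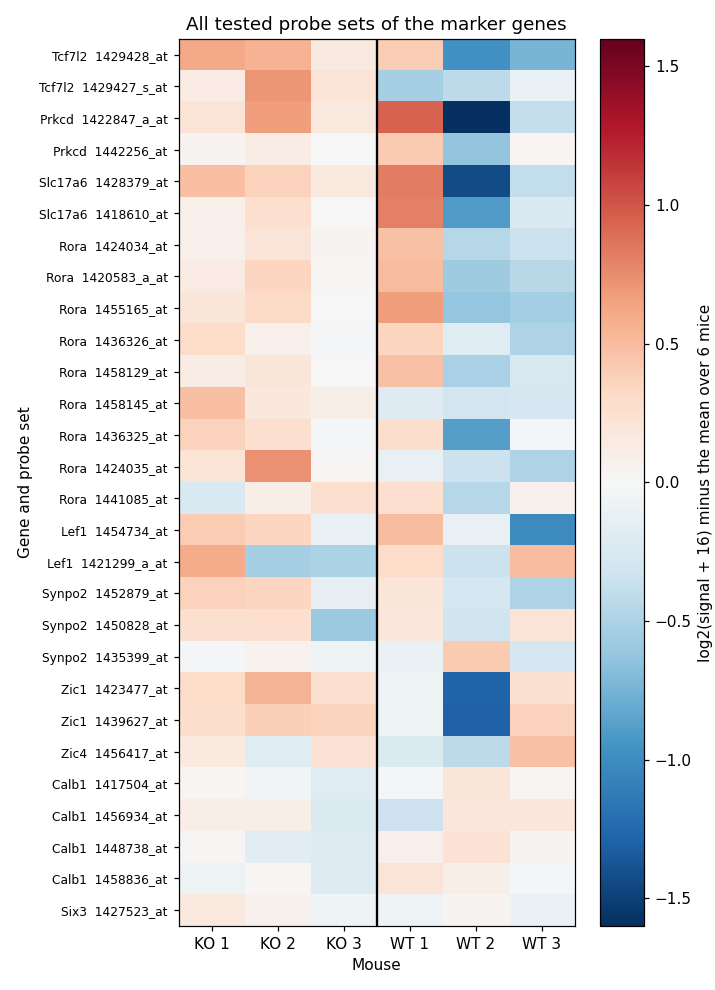
Each of the 28 tested probe sets (rows) in each mouse (columns), as log2(signal + 16) minus its own mean over the 6 mice, with red above and blue below. The WT 2 column is blue for most Prkcd, Slc17a6, Rora and Zic1 rows, WT 1 is red for Prkcd, Slc17a6 and most Rora rows but not for Zic1, and the Calb1 and Six3 rows are pale.

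Zic1 and Zic4 encode zinc-finger transcription factors and are neighbours transcribed away from each other, their RefSeq starts 3204 bases apart on chromosome 9 of GRCm38.p6. The brighter Zic1 probe set (1423477_at) read 792, 945 and 773 in KO and 613, 255 and 762 in WT. All KO mice were above all WT mice, though KO 3 cleared WT 3 only narrowly (difference 0.74, SE 0.28, adjusted p = 0.42, 95% interval 0.13 to 1.34). Of all tested probe sets 6.52% lay entirely higher in KO and 7.88% entirely lower, and among the 28 these counts were 4 and 1. The second Zic1 probe set read 590, 636 and 622 in KO and 456, 188 and 628 in WT, and there WT 3 lay within the KO range (difference 0.68, SE 0.29, adjusted p = 0.50). WT 2 was the lowest mouse in both, as in Slc17a6 and Prkcd, but WT 3 was the highest WT mouse where those genes had WT 1. Without WT 2 the Zic1 differences were 0.28 and 0.20. The tested Zic4 probe set (1456417_at) was dim, at 45.8, 32.7 and 49.2 in KO and 31.3, 25.5 and 61.0 in WT, with the same order of WT mice as Zic1 and overlapping groups (difference 0.13, SE 0.25, adjusted p = 0.93). Without WT 2 it was -0.05.

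The promoter windows of this neighbouring pair, and of Prkcd and Slc17a6, whose signals ran closest together over the mice, are shown from RefSeq, build GRCm38.p6, from 250 bases before to 50 after the start, each 5′ to 3′ on the gene's own strand. Of the members 9 had windows there, 15 in all. Zic1 is the window chr9:91365719-91366018 on the minus strand, Zic4 chr9:91368722-91369021 on the plus strand, Prkcd chr14:30626159-30626458 on the minus strand and Slc17a6 chr7:51621580-51621879 on the plus strand. Capitals mark a match to the TCF/LEF motif, searched as CTTTGAA or CTTTGAT on both strands.
Zic1: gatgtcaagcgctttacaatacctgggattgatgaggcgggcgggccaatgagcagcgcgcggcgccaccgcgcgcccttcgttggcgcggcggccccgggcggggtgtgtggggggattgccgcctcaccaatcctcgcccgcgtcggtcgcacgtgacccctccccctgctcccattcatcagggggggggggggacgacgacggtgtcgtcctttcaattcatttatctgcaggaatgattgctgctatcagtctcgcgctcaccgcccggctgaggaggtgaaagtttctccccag
Zic4: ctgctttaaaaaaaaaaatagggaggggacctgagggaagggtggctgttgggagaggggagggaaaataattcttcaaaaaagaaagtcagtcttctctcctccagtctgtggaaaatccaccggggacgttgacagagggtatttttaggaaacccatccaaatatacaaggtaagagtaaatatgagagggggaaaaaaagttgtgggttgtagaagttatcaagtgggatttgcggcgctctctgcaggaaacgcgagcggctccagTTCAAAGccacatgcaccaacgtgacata
Prkcd: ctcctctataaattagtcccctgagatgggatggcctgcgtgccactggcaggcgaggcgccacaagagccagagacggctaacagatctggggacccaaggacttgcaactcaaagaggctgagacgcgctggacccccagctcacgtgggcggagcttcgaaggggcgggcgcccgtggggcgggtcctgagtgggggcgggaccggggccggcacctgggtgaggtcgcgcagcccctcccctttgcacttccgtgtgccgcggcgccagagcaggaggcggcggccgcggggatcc
Slc17a6: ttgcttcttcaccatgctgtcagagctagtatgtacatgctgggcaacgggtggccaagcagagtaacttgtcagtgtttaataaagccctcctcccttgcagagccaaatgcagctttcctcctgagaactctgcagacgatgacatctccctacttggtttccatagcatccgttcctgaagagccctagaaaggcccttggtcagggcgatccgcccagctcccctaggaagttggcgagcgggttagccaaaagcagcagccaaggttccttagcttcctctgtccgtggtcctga
The match in Zic4, 21 bases after the start, was the only one in the 15 member windows, and 8.65% of all 32851 windows of this length hold one. Zic1 has 65.3% G and C in its window, Prkcd 69.3%, Slc17a6 53.7% and Zic4 46.0%, where the median of all windows is 52.7%.

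Calb1 and Six3, the members that striatal neurons also express, varied least among the members' brightest probe sets within WT. The brightest Calb1 probe set (1417504_at) read 3490, 3323 and 2990 in KO and 3379, 3907 and 3455 in WT, with WT 2 the highest mouse (difference -0.13, SE 0.08, adjusted p = 0.68, 95% interval -0.30 to 0.04). All 4 Calb1 probe sets were lower in KO by their means, from -0.24 to -0.02, with 0 called. The one at -0.24 was the single member probe set with all KO mice below all WT mice, at 270, 237 and 229 against 283, 317 and 276 (SE 0.11, adjusted p = 0.51). The tested Six3 probe set (1427523_at) read 464, 437 and 393 in KO and 391.5, 427 and 383 in WT, and the groups overlapped (difference 0.10, SE 0.09, adjusted p = 0.80, 95% interval -0.10 to 0.31). The other 2 Six3 probe sets were below the filter.

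**Figure D3:**
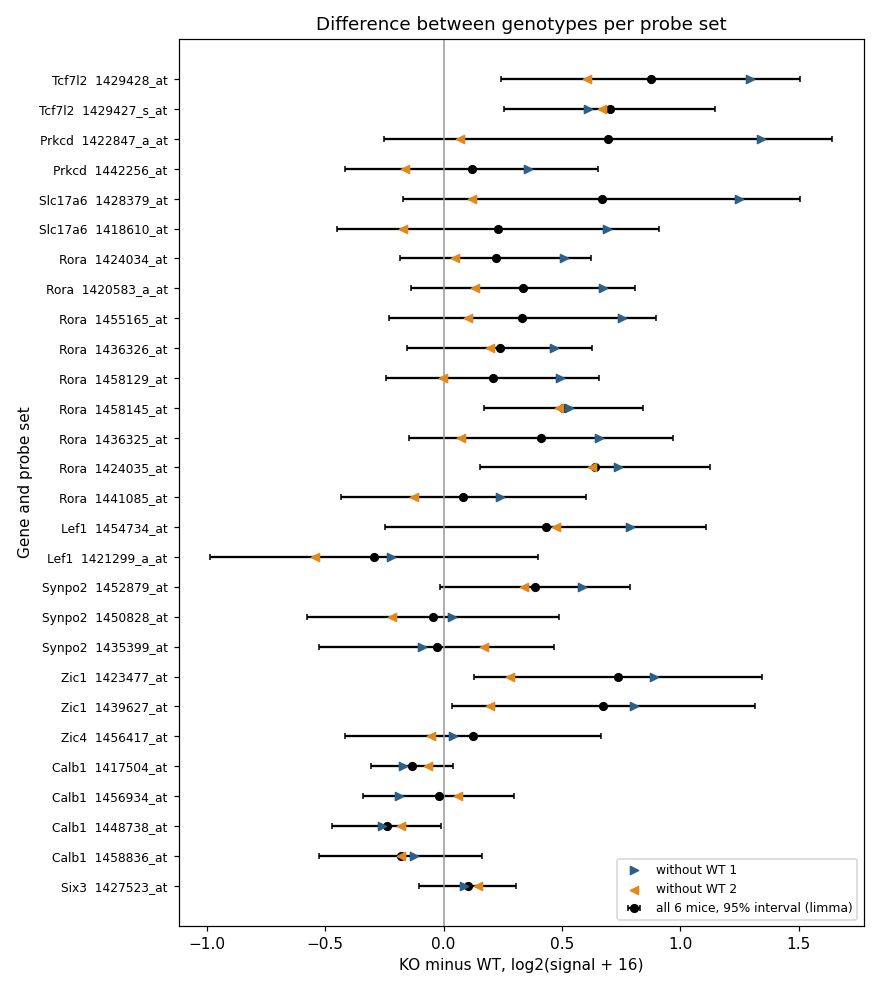
KO minus WT on log2(signal + 16) for each tested probe set, as the estimate from all 6 mice with its 95% limma interval (black), the estimate without WT 1 (blue) and the estimate without WT 2 (orange). For Slc17a6, Prkcd and most Rora probe sets the blue points lie to the right and the orange points near 0, while the Calb1 and Six3 estimates move less.

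Whether the markers moved together from mouse to mouse was measured over the 6 mice with the brightest probe set of each gene. Of 45 pairs 30 had a positive Pearson r, and the median was 0.42 (0.43 for deviations from the own genotype's mean). An r above 0.8 was found in 8 pairs, each between 2 of Tcf7l2, Prkcd, Slc17a6, Rora, Lef1 and Synpo2. The 15 pairs within these 6 genes, a grouping made after the values were seen, ran from 0.531 to 0.980 with a median of 0.883. The 30 pairs that involve Zic1, Zic4, Calb1 or Six3 ran from -0.748 to 0.795 with a median of 0.0055. With 6 mice no pair passed Benjamini-Hochberg adjustment over the 45 (smallest adjusted permutation p = 0.0626), and 8 had an unadjusted exact permutation p under 0.05. So few mice have too few orderings for a single pair to pass this adjustment alone. The same holds for the adjustment over 140 pairs of a member and a list, used below. The correlations are therefore given as a description.

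Prkcd and Slc17a6 were the closest pair, with r = 0.980 and Spearman's rho = 0.943 (two-sided exact permutation p = 0.00417 and 0.0167, adjusted 0.0626 and 0.15). Leaving out WT 1 and WT 2, the mice farthest from the median of Prkcd, r was 0.853. Prkcd and Rora ranked the 6 mice identically (r = 0.935, rho = 1.0, exact permutation p = 0.00278 for each, adjusted 0.0626 and 0.125), and r was 0.970 without those mice. Tcf7l2 followed Slc17a6 with r = 0.913 and rho = 0.829 (exact permutation p = 0.00972 and 0.0583, adjusted 0.0875 and 0.291), but without WT 2 and WT 3 r was 0.397, so this relation rests on those mice. The same held for Tcf7l2 with Prkcd (0.883, then 0.252) and with Rora (0.891, then 0.142). Of the 8 pairs above 0.8, the other 5 stayed above it. The mice left out were the 2 farthest from the median of 1 gene of the pair, so they differed between pairs. With so few mice left, these values are a description only.

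Zic1 tracked Slc17a6 less closely, with r = 0.779 and rho = 0.371 (exact permutation p = 0.114 and 0.497, adjusted 0.321 and 0.745), and r was 0.507 without WT 1 and WT 2. Zic1 and Zic4 gave r = 0.606 and rho = 0.429 (exact permutation p = 0.178 and 0.419, adjusted 0.40 and 0.725), with -0.929 once WT 1 and WT 2 were left out. Six3 gave almost no correlation with Slc17a6 (r = 0.024, rho = 0.20, exact permutation p = 0.969 and 0.714, adjusted 0.99 and 0.84). Calb1 ran opposite to it (r = -0.649, rho = -0.314, exact permutation p = 0.201 and 0.564, adjusted 0.431 and 0.793), and without WT 2 and WT 3 that r was 0.697.

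**Figure D4:**
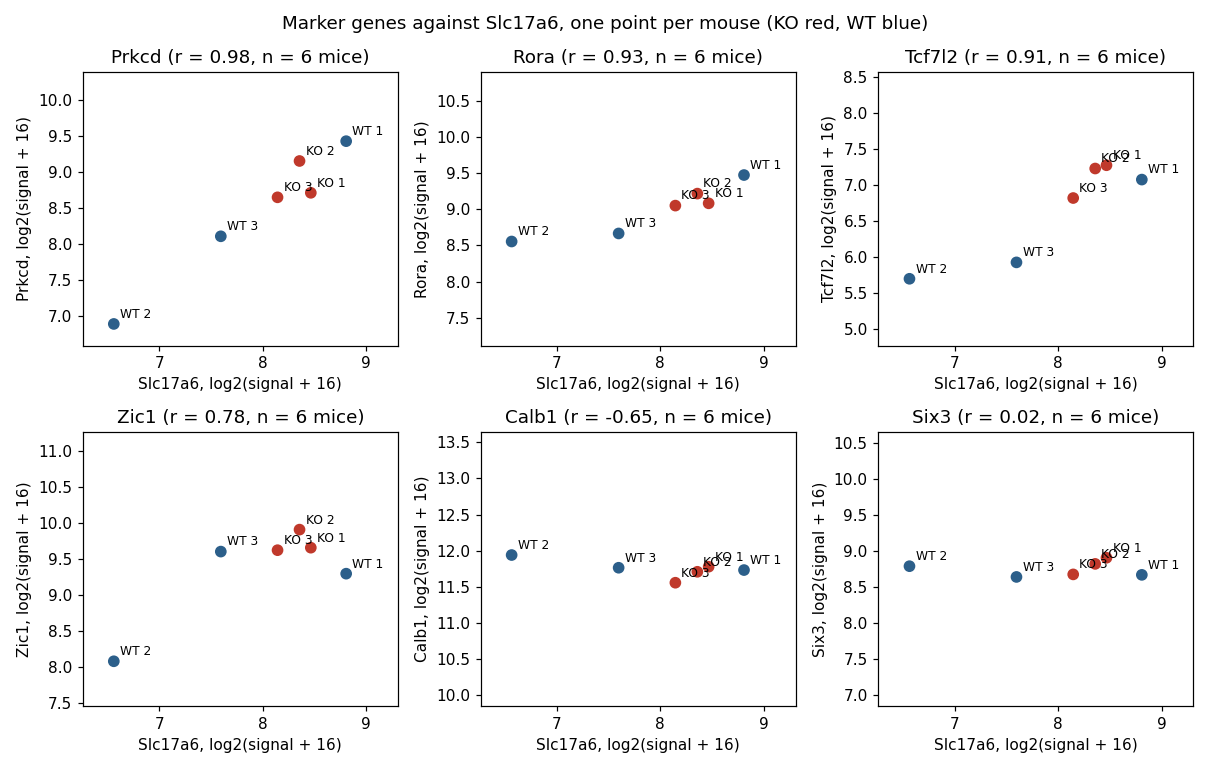
Prkcd, Rora, Tcf7l2, Zic1, Calb1 and Six3 against Slc17a6, all as log2(signal + 16), 1 point per mouse with KO in red and WT in blue and equal vertical spans. Prkcd climbs with Slc17a6 from WT 2 through WT 3 and the KO mice to WT 1, Zic1 is low in WT 2 alone, and Calb1 and Six3 stay nearly flat.

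Most, but not all, of the other thalamic markers were lowest in WT 2 and highest in WT 1. In a list of 13 further thalamic genes, 11 were tested, all 11 were higher in KO by their means and 0 were called (median 0.49, 4 with an unadjusted p under 0.05). Without WT 2 that median was 0.06. Their median relative to the WT mean was 0.41, 0.49 and 0.46 in KO and 0.69, -0.51 and -0.12 in WT mice 1 to 3. Shox2, a homeobox gene of thalamic neurons, read 254, 239 and 187 in KO and 313, 25.9 and 69.0 in WT, a 12.1-fold span among WT mice (difference 1.19, SE 0.51, adjusted p = 0.49). Plekhg1 differed by 0.73 (adjusted p = 0.45). Cbln1, a secreted synapse organiser, had the smallest p in the list and no overlap, at 104, 71.6 and 69.6 against 62.2, 45.6 and 34.0 (difference 0.64, SE 0.21, adjusted p = 0.33). WT 2 was the lowest mouse in 8 of the 11 and WT 1 the highest in 8. Calb2, calretinin, had the reverse order of WT 1 and WT 3, at 140, 110 and 131 in KO and 59.9, 71.7 and 229 in WT, with WT 1 the lowest and WT 3 the highest of all mice (difference 0.28, adjusted p = 0.86). Cbln1 and Cacna1g, a T-type calcium channel subunit (30.6 in WT 3), were lowest in WT 3. The per-mouse median of this list correlated with Prkcd at r = 0.971 and rho = 0.943 (exact permutation p = 0.00278 and 0.0167, adjusted over 140 pairs of a member and a list 0.195 and 0.779), and at 0.891 without WT 1 and WT 2.

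Genes of the septal and pallidal lists did not share 1 order of the WT mice, and some had that of Slc17a6 or Zic1. In a septal list 3 of 7 genes were tested, Zic5, Trpc4 and Nts, all higher by their means with 0 called. Nts, the neurotensin precursor, read 314, 355 and 495 in KO and 223, 277 and 339 in WT (difference 0.44, SE 0.17, adjusted p = 0.41). Trpc4 read 74.5, 97.2 and 110 in KO and 81.9, 72.0 and 108 in WT, the same order of WT mice as Zic1 (difference 0.09, adjusted p = 0.92). Zic5 had its lowest value in WT 2, 34.1, and its highest in WT 3, 86.1, as Zic4 did, and KO 1 to 3 read 49.0, 55.6 and 65.6. In a pallidal list 5 of 8 genes were tested, 2 higher and 3 lower, with 0 called. Pvalb, parvalbumin, read 476, 748 and 444 in KO and 1362, 652 and 701 in WT (difference -0.64, SE 0.24, adjusted p = 0.41). Kcnc1, a fast-spiking potassium channel subunit, read 767, 504 and 588 in WT mice 1 to 3 and differed by -0.34 (adjusted p = 0.49). Pvalb and Kcnc1 both ranked the WT mice as Slc17a6 and Prkcd did, with WT 1 highest and WT 2 lowest. Unlike those members, they had lower means in KO than in WT. The parts of pallidal tissue and of striatal parvalbumin interneurons in these values were not tested.

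Relatives of the members by family, 12 of 21 tested, had a median of 0.02 with 7 higher, 5 lower and 0 called. Besides Pvalb, which also stands in the pallidal list, Prkce, another calcium-independent PKC, had the smallest p and no overlap (difference 0.16, SE 0.07, adjusted p = 0.49). Slc17a7, the vesicular transporter of cortical glutamatergic neurons, read 88.3, 108 and 279 in KO and 243, 185 and 116 in WT, so the order of mice was not that of Slc17a6.

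Markers of the striatum itself were far above the filter in every mouse, with single values from 273 (Isl1, KO 1) to 7131 (Penk, KO 1). In a projection neuron list of 21 genes 19 were tested, among them Ppp1r1b, DARPP-32, at 4109 ± 345 in KO and 3852 ± 797 in WT, and Drd1, the dopamine D1 receptor, at 1966 ± 118 and 1891 ± 177 (SD, n = 3). Their medians relative to the WT mean ran from -0.02 to 0.12 in KO and from -0.09 to 0.13 in WT, with WT 2 (0.125) and KO 1 (0.123) nearly level at the top. The list had 0 calls and a median difference of 0.06. Gpr6, a receptor of striatopallidal neurons, had the smallest p (difference 0.30, SE 0.09, adjusted p = 0.24), followed by Adcy5 at 0.20 (adjusted p = 0.57). Six3 followed the list's per-mouse median at r = 0.911 and rho = 0.829 (exact permutation p = 0.0292 and 0.0583, adjusted 0.511 and 1.0), and at 0.867 without its 2 farthest mice.

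Lists for other neighbours and cell types differed from each other in their order of the mice. The cortical list (11 of 12 tested, 5 higher, 6 lower, 0 called, median -0.14) was highest in KO 3 and WT 1 and lowest in KO 2, with Fezf2 (-0.58, adjusted p = 0.47) and Neurod2 (-0.35, adjusted p = 0.69) leading by p. In the choroid plexus list 4 of 11 were tested and all 4 were higher by their means (median 0.31). Ttr, transthyretin, rose and read 3660, 2597 and 3062 in KO and 1264, 1543 and 2193 in WT (difference 0.92, SE 0.17, limma adjusted p = 0.035), the single call in any of the 14 lists, lost without KO 1, KO 3 or WT 2 and with no filter. The ependymal list (5 of 5 tested, 4 higher, 0 called, median 0.15) was lowest in WT 2 and was the list Zic1 followed most closely, at r = 0.951 and rho = 0.829 (exact permutation p = 0.00694 and 0.0583, adjusted 0.233 and 1.0), with 0.674 when WT 1 and WT 2 were left out. Tmem212 differed by 0.40 (adjusted p = 0.51) and Mia by -0.35 (0.80). The hypothalamic list (6 of 11 tested, 3 higher, 3 lower, 0 called) had a median of 0.01, with Pomc at -0.32 (0.68) and Gal at 0.32 (0.72).

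Among glial and vascular lists none had a call. The oligodendrocyte list (9 of 10 tested, 7 lower) had a median of -0.18, and 6 of its 9 genes were highest in WT 1 (66.7%, against 18.1% of all named genes), with Mag (-0.43, adjusted p = 0.11) and Mal (0.37, 0.20) leading by p in opposite directions. Within genotype, as deviations from the own group's mean, the per-mouse median of this list correlated with the brightest probe set of each of the 6 thalamic members, at r = 0.975 for Rora, 0.962 for Tcf7l2, 0.883 for Synpo2, 0.844 for Prkcd and for Lef1, and 0.839 for Slc17a6. Over the 6 mice without that step the correlations were lower, from 0.124 for Tcf7l2 to 0.513 for Rora (rho = 0.257 for Rora, exact permutation p = 0.344 and 0.658, adjusted 0.994 and 1.0). Without the 2 mice farthest from each member's median they ran from -0.234 for Rora to 0.927 for Slc17a6. The list was lower in KO by its median where these members were higher. The within-genotype correlations were not tested. Values of like size were found elsewhere, such as 0.937 for Calb1 with the projection neuron list and 0.925 for Six3 with the microglia list. Zic4 gave -0.919 with the Wnt and TCF list. Astrocyte (8 of 8 tested, median 0.03), microglia (6 of 6, 0.01) and vascular genes (5 of 6, -0.07) were led by S100b (-0.37, 0.11) and Gjb6 (0.23, 0.55), Aif1 (-0.64, 0.34) and C1qb (0.25, 0.47), and Acta2 (-0.24, 0.61) and Cldn5 (-0.29, 0.71). The part of any of these cells in the members' values was not tested.

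**Figure D5:**
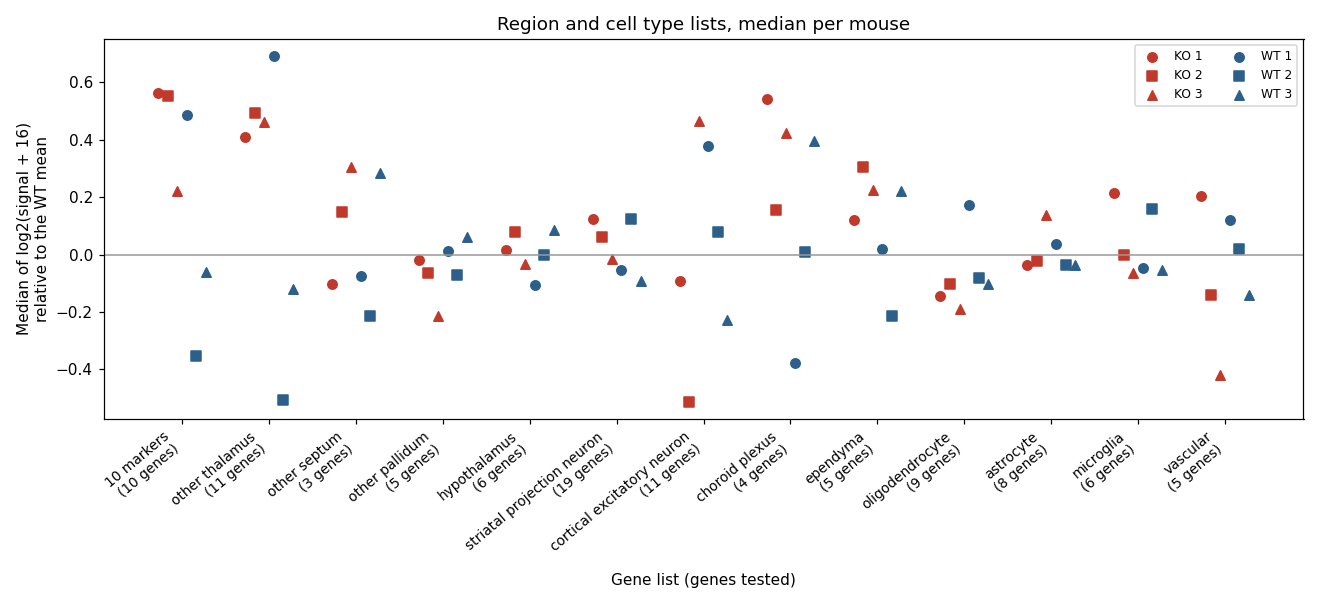
Median log2(signal + 16) of each gene list relative to the WT mean, 1 point per mouse with KO in red and WT in blue. The 10 markers and the other thalamic genes show WT 1 beside the KO mice and WT 2 and WT 3 below. The oligodendrocyte list is highest in WT 1, as the other thalamic genes are, but has the KO mice near or below the other WT mice.

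Genes most like Tcf7l2 and Zic1 were sought among 7433 named genes outside the set whose log2 signal spanned at least 0.5. A gene with several such probe sets entered with the one of highest r, which favours high values. With 6 mice, 86 of them reached r above 0.9 with the brightest Tcf7l2 probe set and 126 with that of Zic1, so single names carry little weight. Nearest to Tcf7l2 were Rgs16 (r = 0.993), Castor2, Itpkb, Ntrk2, Simc1 and Eps15l1 (0.983). Rgs16, a regulator of G-protein signalling, belongs to the thalamic list. The probe set found here, a dimmer one than the list used, read 101, 109 and 71.0 in KO and 92.0, 21.9 and 22.1 in WT. The brighter one of the list read 106, 119 and 123 in KO and 136, 35.2 and 91.7 in WT. There WT 1 was the highest mouse and WT 3 lay well above WT 2, so the Rgs16 probe sets did not share 1 pattern. Nearest to Zic1 were Rsph4a (r = 0.991), Nufip2, Szrd1, Sox4, Ssx2ip and Ppfia1 (0.980). Rsph4a, a radial spoke protein of motile cilia, read 47.5, 48.5 and 43.3 in KO and 40.2, 21.6 and 46.3 in WT.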

How the data were processed

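RNA was isolated from striatum with Qiagen RNeasy and biotin-labelled, per the labels' protocols. The deposited values are MAS5 intensity values on a linear scale, 1 per probe set and array, per the submitters' processing notes. The MAS5 settings and version are not stated there. All arrays shared a mean of 150.0 after trimming 2% at each end, so changes are relative to the rest of the array.

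After removal of 64 control probe sets, signals were taken as log2(signal + 16), and probe sets whose average over the arrays did not exceed the 40th percentile (a signal of about 26.8) were dropped. KO and WT were compared with limma 3.58.1 in R 4.3.3 (lmFit, eBayes with intensity trend) with Benjamini-Hochberg adjustment over 27022 probe sets at 0.05, after a check on simulated data. Platform annotation gave gene names, updated by gene ID through the GRCm38.p6 table. It names no genome build. Each gene is represented by its brightest tested probe set, unless stated otherwise. The search for genes like Tcf7l2 and Zic1 took the probe set of highest r for each gene instead. Named outside the 10 members are, per list, called genes or the 2 smallest p and the 6 genes most like Tcf7l2 and Zic1. Ctnnb1, Shox2, Calb2, Cacna1g, Zic5, Slc17a7, Ppp1r1b, Drd1, Isl1 and Penk were named after their values were seen. Members and lists were chosen with earlier results of these data known. With 3 arrays per group an exact permutation test cannot go below p = 0.1, and the number of arrays limits precision. Alternatives were other normalizations, offsets of 1 and 64, other filters, other eBayes settings, a replicate block and leaving out each array.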

Additional observations from a re-analysis of the deposited data

How the results depend on the processing

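No member probe set was called under quantile normalization, median centring, offsets of 1 or 64, no filter, a filter at the 60th percentile, no intensity trend, robust estimation, an adjusted p under 0.1 or the replicate block. With each array left out in turn the number of calls ran from 0 to 3, the 3 arising without WT 1. The members' median difference of 0.41 ran from 0.13 (without WT 2) to 0.68 (without WT 1). It was 0.27 with an offset of 64, 0.52 with an offset of 1 and 0.41 with the replicate block. When the tested probe sets of each gene were averaged it was 0.23. With the stricter filter, which dropped Zic4 and Lef1, the median over the members left was 0.53. Same-numbered mice did not deviate together (correlations -0.0091, -0.035 and 0.017). Over all pairings of a KO and a WT mouse the correlations ran from -0.041 to 0.049. Whether same-numbered mice shared a batch cannot be told from these values. The median correlation between members ran from 0.20 (without WT 2) to 0.53 (without WT 3). Among the brightest probe sets Zic4 alone changed sign, in 1 of the leave-one-out fits (-0.0545 without WT 2, up to 0.39). Calls among the other lists numbered 1, and 0 with no filter and from 0 to 3 with arrays left out. Probe sets near background have no reliable order between mice.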
